A study of Mus musculus with 24 samples.

Results

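Collagens are the triple-helical proteins that give the extracellular matrix its tensile strength, and fibroblasts are a main source of them. Each molecule is a trimer of alpha chains, which are hydroxylated by oxygen-requiring enzymes and folded in the endoplasmic reticulum (ER) before export. Fibrillar collagens (types I, II, III, V and XI) form fibres, type IV forms the sheet of basement membranes, type VI forms beaded filaments, and type VII anchors basement membranes to the tissue underneath.

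The collagen chain genes were taken as the genes whose symbol has the form Col, number, a, number. On the Illumina mouse arrays they were 41 of 19057 genes with a probe of their own. Where a gene had several probes, its brightest on average stood for it. Since probes differ in brightness for the same amount of RNA, each gene was compared with itself across groups and never with another gene. Col6a3, the remaining main chain of type VI, was not analysed here, nor were Col12a1, Col20a1 and Col21a1.

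RNA came from Siah1a-/-::Siah2-/- mouse embryonic fibroblasts (KO MEFs), mutant in the genes of the RING finger ubiquitin ligases Siah1a and Siah2, and from wild-type MEFs (WT). Cells of each genotype were deprived for 12 h of oxygen (OD), of glucose (GD) or of both (OGD), were treated for 6 h with thapsigargin (TG) or tunicamycin (TM), or were left untreated. TG blocks the calcium pump of the ER and TM blocks N-linked glycosylation, and both set off the unfolded protein response (UPR). The comparisons asked how collagen transcripts differed with genotype and with stress. Each of the 12 groups held 2 arrays. No label said that the duplicates were separate cultures or embryos, so p-values measured only the spread between these arrays, and fewer collagen-making cells could not be told apart from less RNA per cell.

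Values were the normalized intensities that the authors deposited. An intensity above 235, a level set from the bulk of dim probes, was taken as above background. Of 10 fibroblast marker genes, 9 (all but Postn) were above background on at least 1 array. So were 5 of 6 smooth muscle, 4 of 6 endothelial, 4 of 6 epithelial and 3 of 5 blood markers. This rule therefore does not test the fibroblast label. A gene was called when its difference passed an adjusted p of 0.05 (limma, Benjamini-Hochberg over all probes kept) and was at least 2-fold. Siah1a read 178 to 303 on the KO arrays and 1155 to 1839 on the WT arrays, and was called lower in all 6 genotype comparisons. Siah2 was called lower in KO untreated, TG and TM MEFs only. It read 239 to 718 on the KO arrays and 505 to 2014 on the WT arrays, and the genotypes overlapped under OD. The names of the arrays in the study's heat map placed untreated and GD arrays of both genotypes, WT OD and WT OGD in one chip set, and the others in another. KO and WT arrays were therefore compared within 1 chip set except under OD and OGD, where chip set and genotype cannot be told apart.

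Of the 41 chains, 30 were above background on at least 1 array and were tested, and 12 were above it on all 24. By class, 11 of 11 fibrillar chains, 5 of 6 basement membrane chains, 2 of 3 short-chain network chains, 4 of 7 beaded filament chains, 2 of 7 FACIT chains (collagens with interrupted triple helices that sit on fibrils), Col7a1, 3 of 4 transmembrane chains and 2 of 2 multiplexins were tested. The 11 chains not tested were Col4a3, Col6a4, Col6a5, Col6a6, Col9a2, Col9a3, Col10a1, Col13a1, Col14a1, Col19a1 and Col22a1. Among the cartilage chains, Col2a1 lay between 176 and 419 over the 24 arrays, its 2 other probes reaching 549 and 471, and Col11a1 and Col11a2 lay between 192 and 315.

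Collagen calls came mainly from the comparison of genotypes. Over the 6 comparisons of KO with WT MEFs, 14 differences in 8 chains were called, 13 of them higher in KO MEFs. Col7a1 was called higher in KO MEFs in 4 of the 6, and Col1a1, Col18a1 and the type VI chain Col6a2 in 2 each. Of the tested chains, 2 were called higher untreated, 2 under OD, 2 under GD, 2 under OGD, 1 under TG and 4 under TM. Of all 13122 genes tested, 2.35%, 2.25%, 2.13%, 3.09%, 3.19% and 3.67% were, in the same order. Col8a1 was the single chain called lower, under TM, where 2.1% of all genes were.

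A looser rule, at least 2-fold higher in KO MEFs with no overlap of arrays, took 8 tested chains untreated, 9 under OD, 8 under GD, 5 under OGD, 5 under TG and 5 under TM. The same rule took 3.19%, 2.96%, 3.09%, 3.92%, 4.02% and 4.56% of all genes. Only Col8a1 was that much lower without overlap, under TG and TM, where the rule took 2.48% and 2.87% of all genes. The median log2 fold of the 30 tested chains lay between 0.15 (TG) and 0.39 (OD), against medians of all genes between -0.015 and 0.017. Replicate numbers paired the arrays, since same-numbered arrays deviated together. With the replicate number fitted as a block, the chains called in either direction were 5 untreated, 5 under OD, 5 under GD, 4 under OGD, 6 under TG and 6 under TM. The block called 4.66%, 4.76%, 4.53%, 6.2%, 5.96% and 6.84% of all genes, and kept each call made without it.

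**Figure D1:**
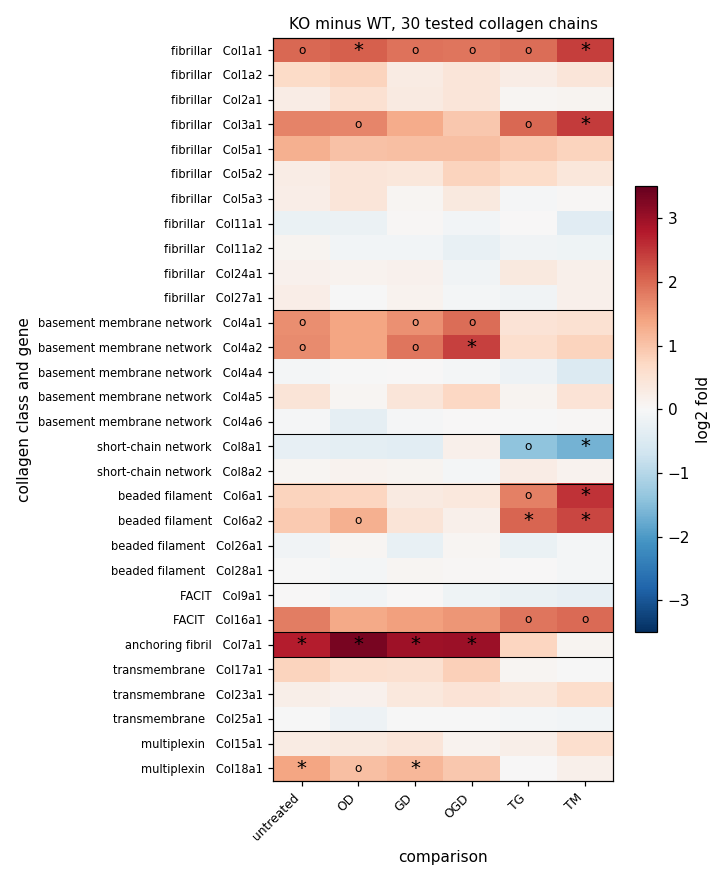
Log2 fold of KO over WT MEFs (colour) for the 30 tested collagen chains, in rows by class, in untreated cells and under the 5 stresses, in columns. Stars mark calls by limma and circles mark chains called only when the replicate number was fitted as a block. Col7a1 is strongly higher in the left 4 columns, whereas Col6a2 carries the star under TG and Col1a1, Col3a1, Col6a1, Col6a2 and Col8a1 carry those under TM.

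Col7a1 encodes the sole chain of type VII collagen, the anchoring fibril that ties epithelium to dermis. It read 2124 and 1973 in untreated KO MEFs and 448 and 211 in untreated WT MEFs. Under OD it read 2518 and 2831 in KO MEFs and 320 and 222 in WT MEFs. The 8 KO arrays of the untreated and deprived groups lay between 1973 and 2831, all above the 8 WT arrays, which lay between 211 and 448. The difference was 6.66-fold untreated (log2 fold 2.74, SE 0.30, adjusted p = 2.75e-05), 10.03-fold under OD (log2 fold 3.33, adjusted p = 3.26e-06), 7.86-fold under GD (log2 fold 2.98, adjusted p = 1.11e-05) and 7.9-fold under OGD (log2 fold 2.98, adjusted p = 9.60e-06). One WT array each of the untreated, OD and GD groups was below background, at 211 to 222, so that these folds lean on a value near the floor. All 4 calls were kept when any 1 array was left out.

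Under the UPR drugs the genotypes lay close together in Col7a1. Under TG it read 658 and 541 in KO MEFs, against 372 and 338 in WT MEFs. Under TM it read 393 and 406 in KO MEFs, against 379 and 366 in WT MEFs. The KO arrays still lay above the WT arrays by a small margin, and neither difference was called (log2 fold 0.75, adjusted p = 0.171, and log2 fold 0.10, adjusted p = 0.930). Relative to untreated KO MEFs, Col7a1 fell under TG (log2 fold -1.78, SE 0.30, adjusted p = 0.00127) and under TM (log2 fold -2.36, SE 0.30, adjusted p = 0.000285). In WT MEFs the same contrasts gave log2 folds of 0.21 and 0.28, neither called. Untreated WT arrays lay too near the background level for a fall as large as in KO MEFs to be seen. The KO response minus the WT response was -2.63 under TM (SE 0.42, adjusted p = 0.0117), where 1 chain and 0.633% of all genes were called. Under TG it was -1.98 (adjusted p = 0.0595; 0.0123 with replicate number as a block). Untreated arrays were of the other chip set than TG and TM arrays in both genotypes. The KO OD and KO OGD arrays, of the same chip set as those of TG and TM, read 2203 to 2831.

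The TM response difference was lost without KO untreated replicate 1 (adjusted p = 0.0737), KO TM replicate 1 (0.0614) or 2 (0.0523), or WT TM replicate 1 (0.0681) or 2 (0.0613). A second Col7a1 probe was dim, between 157 and 383. It was higher in KO MEFs by 0.43 to 0.88 on the log2 scale in the 4 groups, under 2-fold, and its response difference under TM was -0.18. The fold changes of Col7a1 given here therefore rest on 1 probe. The 250 bases before the Col7a1 start are shown because this gene had the most calls (RefSeq, GRCm38.p6, chr9:108953336-108953585, plus strand). Capitals mark a CCAAT box (CCAAT, here on the reverse strand) at -249 to -245 and a GC box (GGGCGG) at -61 to -56 from the start.
Col7a1: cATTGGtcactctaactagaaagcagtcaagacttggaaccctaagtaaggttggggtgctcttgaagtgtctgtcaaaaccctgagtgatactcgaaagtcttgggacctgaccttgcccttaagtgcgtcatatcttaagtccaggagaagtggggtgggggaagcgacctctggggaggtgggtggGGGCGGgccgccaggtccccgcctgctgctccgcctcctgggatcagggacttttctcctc
CCAAT and GGGCGG, sought on both strands, occurred in 33.8% and 32.7% of 32851 RefSeq windows of 250 bases. RefSeq promoters matched 33 of the 41 chains, of which 12 and 21 held them. None of the 33 held the ER stress element (CCAAT and CCACG with 9 bases between them, 0.113% of all windows) or the ATF4-C/EBP composite site (TGATGNAAT, 0.816%). No match says only that these letters are not in these windows.

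**Figure D2:**
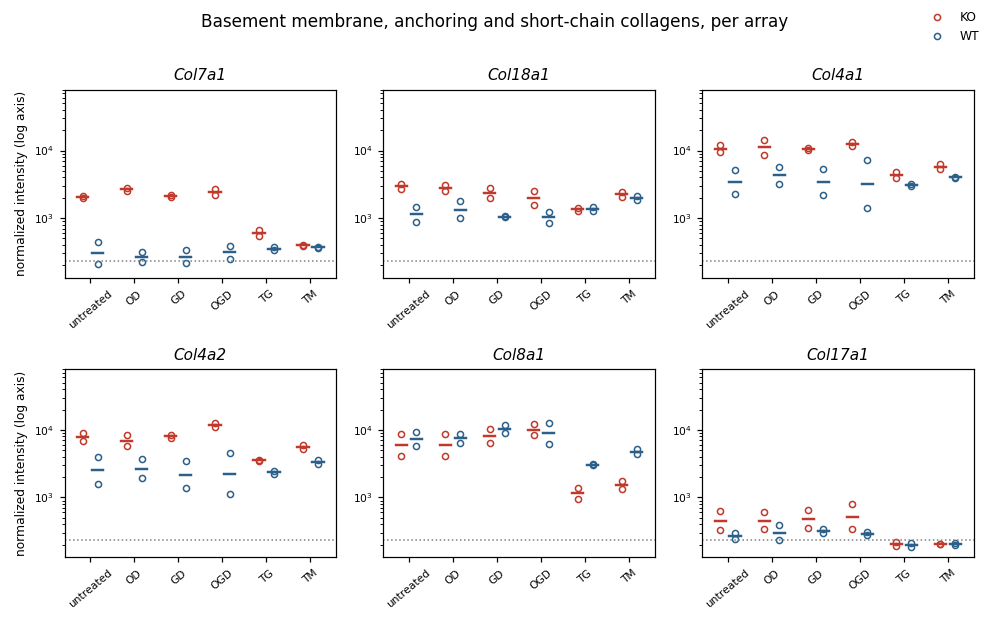
Normalized intensity (log axis) of Col7a1, Col18a1, Col4a1, Col4a2, Col8a1 and Col17a1 on each of the 24 arrays, KO MEFs (red) beside WT MEFs (blue). Circles are arrays, bars are geometric means of 2 arrays, and the dotted line is the background level of 235. Col7a1 in KO MEFs lies at 1973 to 2831 in the untreated and deprived groups and at 393 to 658 under TG and TM, and Col8a1 under both drugs lies lower in KO than in WT MEFs.

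Among the basement membrane chains, Col4a1 and Col4a2, which join in the common type IV trimer, had like differences between genotypes. In untreated cells Col4a1 read 11973 and 9451 in KO MEFs, against 5222 and 2263 in WT MEFs. Col4a2 read 8927 and 6889 in KO MEFs, against 3981 and 1586 in WT MEFs. Both chains were higher on each KO array than on each WT array in all 6 groups. Without the replicate block, Col4a2 under OGD was the 1 call of the pair, at 12813 and 11094 in KO MEFs and 4613 and 1112 in WT MEFs (log2 fold 2.40, SE 0.55, adjusted p = 0.0125). The 2 WT OGD arrays differed 4.15-fold, and the call was lost without WT OGD replicate 2 (log2 fold 1.37, adjusted p = 0.165) or KO OGD replicate 1 (0.0917).

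The block added calls for both chains. For Col4a1 the blocked adjusted p was 0.0457 untreated, 0.0499 under GD and 0.0112 under OGD. For Col4a2 it was 0.0288 untreated and 0.0126 under GD. Under TG and TM the gap was smaller, with log2 folds of 0.48 and 0.52 for Col4a1 and 0.58 and 0.77 for Col4a2, and no difference of responses was called for either. In KO MEFs both were lower under TG than untreated without overlap (log2 folds -1.28 and -1.15), uncalled in the fit of all arrays. They were called in the fit of the compared groups alone (adjusted p = 0.0140 and 0.0154) and with the block nested in chip set (0.00552 and 0.00321). The pair lies head to head on chromosome 8 (GRCm38.p6), with RefSeq starts at position 11312826 on the minus strand for Col4a1 and at position 11312805 on the plus strand for Col4a2, 21 bases apart. Col4a5, a chain of the kidney and smooth muscle trimers encoded on the X chromosome, had log2 folds of 0.073 to 0.72 over the 6 comparisons, with no call.

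Col18a1 encodes a multiplexin of basement membranes whose end fragment is known as endostatin. Untreated, it read 3253 and 2692 in KO MEFs and 888 and 1457 in WT MEFs (log2 fold 1.38, SE 0.30, adjusted p = 0.0120). Under GD it read 2773 and 2014 in KO MEFs and 1043 and 1070 in WT MEFs (log2 fold 1.16, adjusted p = 0.0353). In neither group did the arrays of the genotypes overlap. Under TG they did, at 1284 and 1419 in KO MEFs and 1264 and 1438 in WT MEFs, and relative to untreated KO MEFs the gene fell (log2 fold -1.13, adjusted p = 0.0265). Under TM it read 2072 and 2446 in KO MEFs and 1880 and 2100 in WT MEFs, again with overlap. With the block, OD was also called (adjusted p = 0.0343). The untreated call was lost without KO untreated replicate 1 (adjusted p = 0.122) or WT untreated replicate 1 (0.140). The GD call was lost without KO GD replicate 1 (0.300) or 2 (0.0644) or WT GD replicate 1 (0.115) or 2 (0.159). The fall under TG was lost without KO TG replicate 1 (0.169) or 2 (0.0838) or KO untreated replicate 1 (0.196) or 2 (0.0641). A second, dimmer probe gave log2 folds of 0.74 untreated, 0.62 under GD and -0.48 for the TG response, none called.

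Col8a1, a short-chain collagen of vessel walls and of the cornea's inner membrane, was lower in KO MEFs under the UPR drugs. Untreated it read 8591 and 4175 in KO MEFs and 9329 and 5693 in WT MEFs, with overlap. Under TG it read 965 and 1362 in KO MEFs and 3084 and 3054 in WT MEFs, and under TM 1323 and 1770 in KO MEFs and 4400 and 5202 in WT MEFs, without overlap. It was called lower in KO than in WT MEFs under TM (3.13-fold; log2 fold -1.64, SE 0.43, adjusted p = 0.0249). Under TG the difference missed the threshold (log2 fold -1.42, adjusted p = 0.0568; 0.0177 with the block). Relative to untreated KO MEFs it fell 5.22-fold under TG (log2 fold -2.39, adjusted p = 0.00199) and 3.91-fold under TM (log2 fold -1.97, adjusted p = 0.0135).

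In WT MEFs Col8a1 had a log2 fold of -1.25 under TG (adjusted p = 0.109; 0.0387 with the block), and the difference of responses was not called under TG (log2 -1.14, adjusted p = 0.871) or TM (log2 -1.36, adjusted p = 0.671). A second probe was called in the same 3 contrasts, with log2 folds of -1.46 for KO against WT under TM, -1.92 for the KO response to TG and -1.60 for that to TM. That probe was also called lower in KO than in WT MEFs under TG (log2 fold -1.38, adjusted p = 0.0182). The TM difference between genotypes was lost without KO TM replicate 1 (adjusted p = 0.199) or 2 (0.0686) or WT TM replicate 1 (0.0966) or 2 (0.157). The KO response to TM was lost without KO untreated replicate 1 (0.224) or KO TM replicate 1 (0.155) or 2 (0.0509), and that to TG was kept without any 1 array.

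Among the fibrillar chains, Col1a1, the main chain of type I collagen, was brighter on each KO array than on each WT array in every group but OGD. Untreated it read 22516 and 29482 in KO MEFs and 8255 and 4987 in WT MEFs. Under OD it read 26933 and 33461 in KO MEFs and 7291 and 6701 in WT MEFs, and under TM 45437 and 46584 in KO MEFs and 6844 and 10978 in WT MEFs. Its log2 fold was similar in the 6 groups, between 1.89 and 2.41, and it was called under OD (log2 fold 2.10, SE 0.58, adjusted p = 0.0472) and TM (log2 fold 2.41, adjusted p = 0.0153). With the block the other 4 groups were called as well, with an adjusted p of 0.0323 untreated, 0.0425 under GD, 0.0305 under OGD and 0.0260 under TG. With the block nested in chip set, which the OD and OGD comparisons cross, Col1a1 was called in neither of them (adjusted p = 0.0640 under OD and 0.0774 under OGD). The OD call was lost without any 1 of its 4 arrays (adjusted p between 0.131 and 0.213). The TM call was lost without KO TM replicate 1 (0.0921) or 2 (0.0910) or WT TM replicate 1 (0.159).

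Its partner in the type I trimer, Col1a2, was called in no comparison. It read 846 and 935 in untreated KO MEFs and 658 and 471 in untreated WT MEFs. Under TM it read 1358 and 1293 in KO MEFs and 1012 and 947 in WT MEFs. Its log2 fold was between 0.26 and 0.78 over the 6 comparisons, positive in 6 of 6 (lowest adjusted p = 0.287). Col1a1 and Col1a2 were each measured by 1 probe, and the difference between the chains' log2 folds was not tested.

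Col3a1, the chain of the type III fibres of skin and vessels, read 8098 and 8102 in KO MEFs and 1378 and 1630 in WT MEFs under TM, 5.4-fold higher in KO (log2 fold 2.43, SE 0.59, adjusted p = 0.0163). Untreated it read 1122 and 3793 in KO MEFs and 596 and 644 in WT MEFs, without overlap and without a call (adjusted p = 0.133), the 2 KO arrays differing 3.38-fold. With the block, OD (adjusted p = 0.0496), TG (0.0166) and the KO response to TM (log2 fold 1.97, 0.0224) were called too. A second probe was also called under TM (log2 fold 1.76, adjusted p = 0.0302). The TM call was lost without KO TM replicate 1 (adjusted p = 0.0991) or 2 (0.0921) or WT TM replicate 1 (0.121) or 2 (0.0757). The 250 bases before the Col3a1 start (RefSeq, GRCm38.p6, chr1:45311288-45311537, plus strand) are shown as those of the fibrillar chain called under TM that has a promoter entry, with a TATA box (TATAAA, in 5 of the 33 chains' windows and 12.4% of all) at -117 to -112 in capitals.
Col3a1: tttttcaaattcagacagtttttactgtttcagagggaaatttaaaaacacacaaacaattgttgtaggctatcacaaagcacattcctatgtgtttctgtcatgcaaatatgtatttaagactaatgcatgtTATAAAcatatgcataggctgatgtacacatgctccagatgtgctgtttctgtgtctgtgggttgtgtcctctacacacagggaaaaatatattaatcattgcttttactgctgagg
Col5a2, the neighbour of Col3a1 on chromosome 1 and a chain of the type V collagen that sets fibril width, had log2 folds of 0.27 to 0.78 with no call. Its partner Col5a1 had log2 folds of 0.79 to 1.25, positive in 6 of 6, with no call (lowest adjusted p = 0.0917, untreated). With the block that p was 0.0547, and Col5a1 was called untreated with the block nested in chip set (0.0312) and without WT untreated replicate 1 (0.0245), and under OGD without WT OGD replicate 1 (0.00753). Col5a1 read 16057 and 23300 in untreated KO MEFs and 12072 and 5489 in untreated WT MEFs, which did not overlap.

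**Figure D3:**
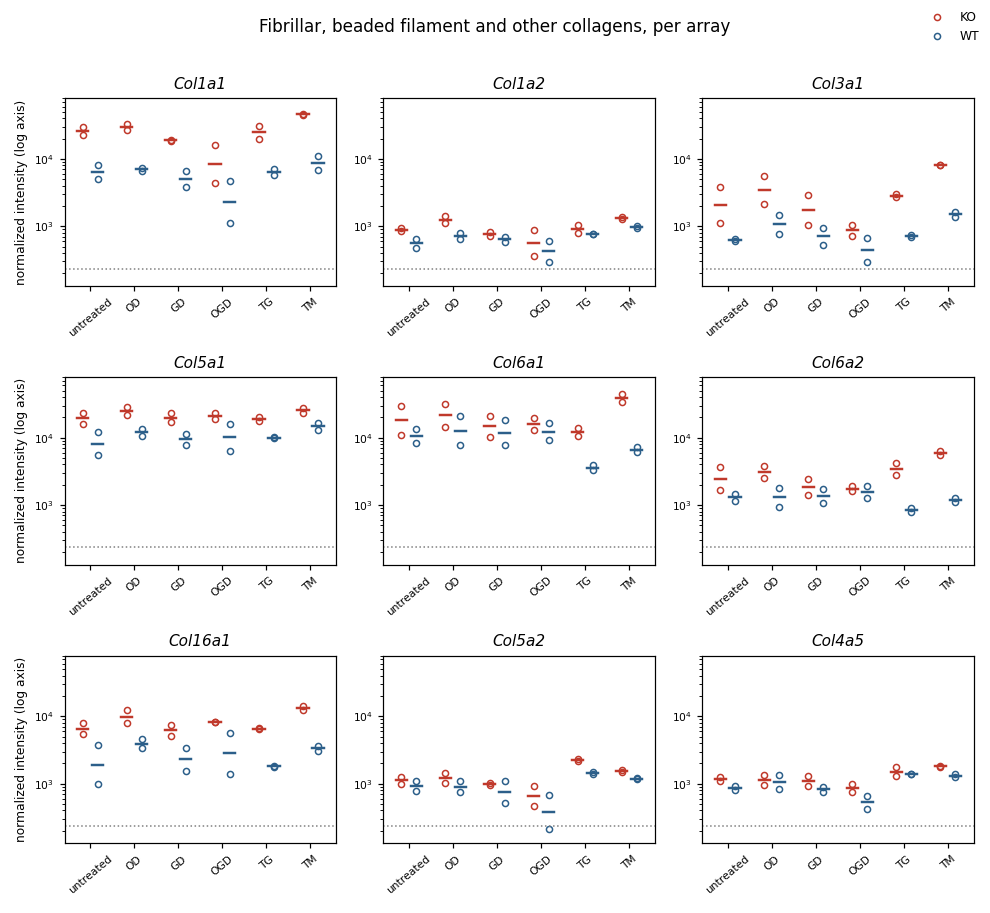
Normalized intensity (log axis) of 9 fibrillar, beaded filament, FACIT and basement membrane chains on each of the 24 arrays, KO MEFs (red) beside WT MEFs (blue), with bars at the geometric means of 2 arrays and the background level dotted. The means of Col1a1 are higher in KO MEFs in all 6 groups, its arrays overlapping under OGD, and the gap of Col6a1 and Col6a2 is widest under TM.

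The type VI chains Col6a1 and Col6a2, which form beaded filaments around cells, were higher in KO MEFs on every array under the UPR drugs, and both were called under TM. Under TM Col6a1 read 34016 and 44306 in KO MEFs and 6068 and 7318 in WT MEFs (5.83-fold; log2 fold 2.54, SE 0.57, adjusted p = 0.00937). Col6a2 read 5571 and 6402 in KO MEFs and 1095 and 1278 in WT MEFs (5.05-fold; log2 fold 2.34, SE 0.40, adjusted p = 0.00132). The arrays of the genotypes were far apart for both chains. Under TG Col6a2 read 2831 and 4216 in KO MEFs and 787 and 898 in WT MEFs (log2 fold 2.04, adjusted p = 0.00428), the 1 call among the chains under TG. Under TG Col6a1 read 10644 and 13733 in KO MEFs and 3300 and 3860 in WT MEFs, also without overlap (adjusted p = 0.0766; 0.000377 with the block). Under OD Col6a2 read 2490 and 3763 in KO MEFs and 927 and 1819 in WT MEFs and was called with the block only (log2 fold 1.24, adjusted p = 0.102; 0.000938 with the block). In untreated cells the 2 KO arrays of Col6a1 stood at 11136 and 29333 and the WT arrays at 8291 and 13398, which overlapped.

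Both drugs were also set against untreated cells of the same genotype. In KO MEFs Col6a2 had a log2 fold of 1.29 under TM relative to untreated cells (adjusted p = 0.0852; 0.000881 with the block), and Col6a1 of 1.10 (adjusted p = 0.349; 0.0170 with the block). In WT MEFs Col6a1 had a log2 fold of -1.56 under TG (adjusted p = 0.135; 0.00136 with the block). The KO response to TM exceeded the WT response by 1.76 for Col6a1 (adjusted p = 0.688; 0.0378 with the block) and by 1.43 for Col6a2 (adjusted p = 0.552; 0.0246 with the block), on the log2 scale. None of these contrasts with untreated cells was called when all arrays were fitted without the block. The WT contrast of Col6a1 was called in the fit of the compared groups alone, and the KO contrast of Col6a2 without KO untreated replicate 2 (adjusted p = 0.0353).

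The Col6a1 call under TM was lost without KO TM replicate 2 (adjusted p = 0.0861) or WT TM replicate 1 (0.0870), and the Col6a2 call under TG without replicate 2 of the KO arrays (0.0615) or replicate 1 of the WT arrays (0.0505). The Col6a2 call under TM was kept without any 1 array. Of Col6a1's other probes, one gave a log2 fold of 2.17 under TM and was called, and another gave 1.75 (adjusted p = 0.0781). Col6a2's other probe gave 0.89 under TG and 0.94 under TM, neither called. The genes neighbour each other on chromosome 10, both on the minus strand, and their upstream 250 bases are shown because both chains were called under TM. The windows are chr10:76726045-76726294, minus strand, for Col6a1 and chr10:76623631-76623880, minus strand, for the more upstream of 2 RefSeq starts of Col6a2 (GRCm38.p6). Capitals mark an AP-1 site (TGACTCA, 4.46% of all windows) at -90 to -84 from the Col6a1 start, and a GC box on the reverse strand at -175 to -170 from the Col6a2 start.
Col6a1: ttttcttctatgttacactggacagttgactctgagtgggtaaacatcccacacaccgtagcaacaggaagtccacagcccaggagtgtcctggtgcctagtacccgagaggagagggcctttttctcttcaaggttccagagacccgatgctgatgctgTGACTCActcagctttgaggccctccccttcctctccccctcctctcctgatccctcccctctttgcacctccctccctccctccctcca
Col6a2: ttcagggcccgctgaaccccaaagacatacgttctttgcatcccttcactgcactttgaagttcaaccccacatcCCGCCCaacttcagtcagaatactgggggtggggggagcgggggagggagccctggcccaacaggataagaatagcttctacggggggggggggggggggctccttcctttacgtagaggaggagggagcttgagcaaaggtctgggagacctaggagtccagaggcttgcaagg
Of the 33 chains, 1 (Col6a1) held the AP-1 sequence.

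Col16a1, a FACIT collagen that sits beside fibrils and microfibrils, was higher on each KO array than on each WT array in all 6 groups. Untreated it read 5402 and 8059 in KO MEFs and 3770 and 973 in WT MEFs, and under TM 12251 and 14230 in KO MEFs and 3098 and 3612 in WT MEFs. Its log2 fold was between 1.32 and 1.98 and missed the threshold in each in the fit of all arrays (lowest adjusted p = 0.0505, under TM). With the block it was called under TG (adjusted p = 0.0369) and TM (0.0251). Under TM it was also called with the stricter filter (0.0407), cyclic loess (0.0468) and the mean of probes (0.0388). The fit of the compared groups alone called it under TG and TM, and the block nested in chip set called it untreated (0.0284). The transmembrane chain Col17a1, a component of hemidesmosomes, read 621 and 331 in untreated KO MEFs and 240 and 297 in untreated WT MEFs. Under TG and TM all its arrays were below background in both genotypes, between 182 and 216, and the contrasts with untreated KO MEFs were not called (log2 fold -1.15 each, adjusted p = 0.0920 and 0.127). The remaining tested chains gave no call. Of these, Col23a1 and Col4a4 had an adjusted p under 0.05 under TM with differences under 2-fold, at log2 folds of 0.60 and -0.48.

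Contrasts of stressed with untreated cells gave few calls. The looser rule, at least 2-fold with no overlap of arrays, took more. In KO MEFs it took 2 lower under OGD, 1 higher and 6 lower under TG, and 4 higher and 3 lower under TM. The 6 lower under TG were Col4a1, Col4a2, Col7a1, Col8a1, Col17a1 and Col18a1. In WT MEFs it took 2 lower under OGD, 2 lower under TG and 1 higher under TM. The share of all genes by this rule is not given here for these contrasts. In KO MEFs 0 chains were called under OD, GD and OGD (0, 0 and 2 at an unadjusted p under 0.05, and 0 with the block), against 0.297%, 0.00762% and 1.32% of all genes. Col7a1, Col8a1 and Col18a1 were called lower under TG and Col7a1 and Col8a1 under TM, where 2.39% and 1.39% of all genes were called lower. By its brightest probe, no chain was called higher in KO MEFs under any stress in the fit of all arrays without the block. A second probe of Col5a2 was called higher under TG in that fit (log2 fold 1.21, adjusted p = 0.0361). Col3a1 was called higher under TM with the mean of probes or without KO untreated replicate 2, and the fit of the compared groups alone called Col5a2 higher under TG. With the block, 5 chains were called under TM (4.64% of all genes), Col3a1, Col6a1 and Col6a2 being higher. In WT MEFs none of the 30 was called by limma under any of the 5 stresses. At an unadjusted p under 0.05 there were 0 under OD, 1 under GD, 3 under OGD, 4 under TG and 5 under TM. With the block 1 chain was called under OGD (Col5a2, log2 fold -1.27, adjusted p = 0.0412) and 2 under TG (Col8a1 and Col6a1), against 5.72% and 4.88% of all genes. Of all genes, without the block, 0.251%, 0.00762%, 4.63%, 3.91% and 2.62% were called in WT MEFs in the order OD, GD, OGD, TG and TM. The median log2 fold of the 30 tested chains lay between -0.065 and 0.098 over the 10 contrasts. The contrasts of each genotype share its untreated arrays, and the TG and TM contrasts, and in KO MEFs those of OD and OGD, cross chip sets. Differences of response between genotypes were called for 0 chains under OD, GD, OGD and TG, against 0%, 0%, 0.0229% and 0.495% of all genes, and for Col7a1 alone under TM. With the block, 1 chain under TG and 3 under TM were called, against 1.19% and 1.37% of all genes.

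**Figure D4:**
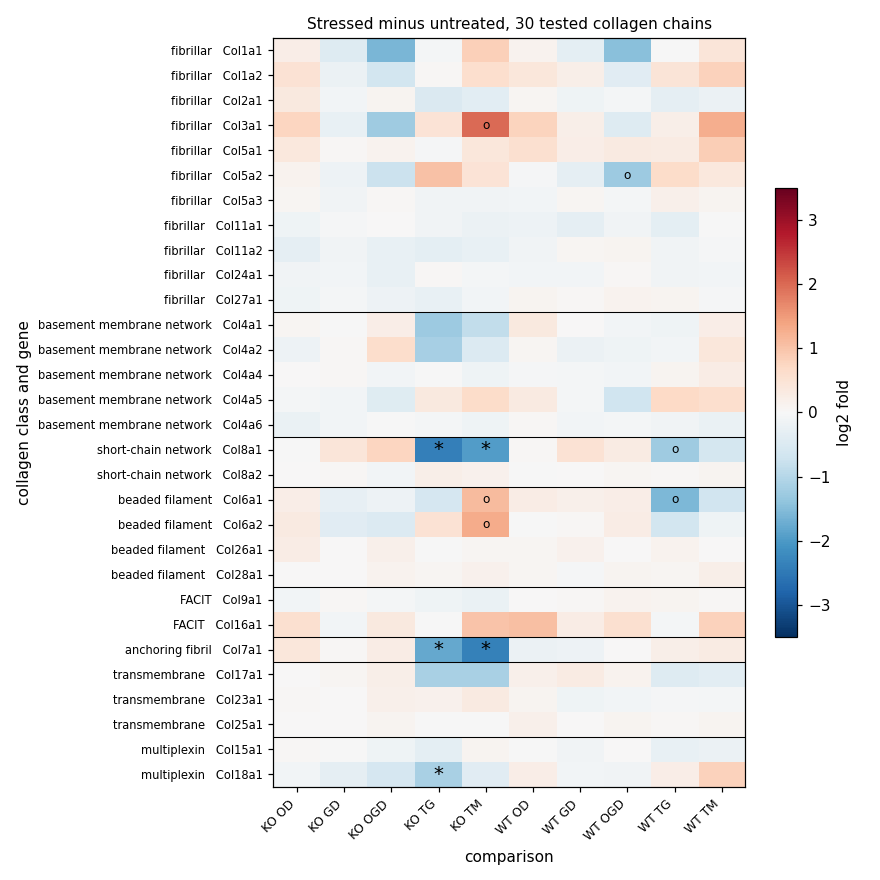
Log2 fold of stressed over untreated MEFs (colour) for the 30 tested collagen chains by class, in KO MEFs (left 5 columns) and WT MEFs (right 5 columns). Stars mark calls by limma and circles mark chains called only with the replicate block. The stars are Col7a1, Col8a1 and Col18a1 in KO MEFs under TG and Col7a1 and Col8a1 under TM, all lower than untreated.

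Under combined deprivation Col1a1 had its lowest mean in both genotypes. Under OGD Col1a1 read 16332 and 4469 in KO MEFs, against 22516 and 29482 in untreated KO MEFs (log2 fold -1.59, adjusted p = 0.222). In WT MEFs it read 4738 and 1127 under OGD, against 8255 and 4987 untreated (log2 fold -1.47, adjusted p = 0.145). Neither pair of groups overlapped and neither difference was called. The duplicates under OGD differed 3.65-fold in KO and 4.20-fold in WT MEFs. Each was called when 1 array was left out, in KO MEFs without OGD replicate 1 (log2 fold -2.53, adjusted p = 0.0322) and in WT MEFs without OGD replicate 1 (log2 fold -2.51, adjusted p = 0.00835).

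Enzymes and carriers of procollagen in the ER were tested as a list of 25 genes, and none was called between KO and WT MEFs in any of the 6 comparisons. Of all 13122 genes tested, 483 (GD) to 756 (TM) were called, so few calls were to be had in a list of this size. With the block, the proline isomerase Fkbp14 was called higher in KO MEFs untreated (log2 fold 1.31, adjusted p = 0.00406) and under GD (1.28, 0.00494), and the hydroxylase P3h3 under TM (1.02, 0.0277). Serpinh1, the collagen chaperone HSP47, read 36886 to 60137 on the KO arrays and 29948 to 62240 on the WT arrays, with log2 folds of -0.073 to 0.36. Hydroxylases were called between oxygen-deprived and untreated cells. P4ha2, a prolyl 4-hydroxylase subunit, read 27446 and 30721 in KO MEFs under OD, against 5693 and 5133 in untreated KO MEFs (log2 fold 2.43, adjusted p = 0.00426). In WT MEFs it read 20995 and 16574 under OD, against 4691 and 2962 untreated (log2 fold 2.32, adjusted p = 0.00695). The lysyl hydroxylases Plod1 and Plod2 also rose under OD and OGD in both genotypes, Plod2 with log2 folds of 1.92 (OD) and 1.92 (OGD) in KO MEFs and 2.00 and 1.45 in WT MEFs. P4ha1 had log2 folds of 2.27 in KO and 1.95 in WT MEFs under OGD, called with the block only (adjusted p = 0.00404 in KO and 0.00395 in WT MEFs). It read 2676 and 8787 in KO MEFs under OGD, against 603 and 1687 untreated, and 3906 and 9697 in WT MEFs under OGD, against 915 and 2790 untreated. Under TG and TM, Sec24d, a coat subunit needed for procollagen export, rose in both genotypes (log2 folds of 1.36 and 1.21 in KO and 1.46 and 1.37 in WT MEFs). Ctage5, a partner of the procollagen export receptor, was called higher in KO MEFs under TG, and the hydroxylase P3h1 and the disulfide isomerase Pdia3 in WT MEFs under both drugs.

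Of 13 tested genes that process or cross-link collagen outside the cell, 3 were called higher in KO than in WT MEFs untreated, 1 under OD, 2 under GD, and 3 under OGD, TG and TM each. Of all genes, 2.35%, 2.25%, 2.13%, 3.09%, 3.19% and 3.67% were called higher in that order of groups. Pcolce2 was called lower under OGD, TG and TM, where 672, 662 and 756 of all 13122 genes were called in either direction. Dcn, the proteoglycan decorin that binds fibrils, was called in 5 of the 6 groups, with a log2 fold of 1.72 untreated and 5.09 under TM. Tgm2, a transglutaminase, had log2 folds of 1.53 untreated and 3.42 under TM. Of 9 collagen receptors, Cd44 alone was called between genotypes, lower in KO MEFs under TG and TM. Of all genes, 662 and 756 were called there in either direction. Against untreated cells, 1 receptor was called lower in WT MEFs under TG, 1 in KO MEFs under TG and 1 in KO MEFs under TM. In KO MEFs 2.39% of all genes were called lower under TG and 1.39% under TM. In WT MEFs under TG 3.91% were called in either direction. With the block, 3 receptors were lower in WT MEFs under TG, 2 in KO MEFs under TG and 1 in KO MEFs under TM. The block called 640, 880 and 609 of all genes there, in either direction. Of 15 tested genes of the TGF-beta pathway, a known driver of collagen transcription, 1 was called higher untreated, 2 under OD, 0 under GD, 1 under OGD, 4 under TG and 7 under TM, where the shares of all genes called higher were those given above for the 13 genes. Among them were Tgfbi (log2 fold 3.14 under TG) and Tgfbr3 (2.36 under TM), while the target Ccn2 was called lower under TM (-2.45). Tgfbr2 was the 1 gene of that list called untreated.

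Markers of other cells were read beside these results. The summed intensity of 9 chondrocyte or bone markers was 25394 to 25510 in KO and 4303 to 4798 in WT MEFs under TG, and 20648 to 23699 in KO and 5009 to 5373 in WT MEFs under TM. Most of each sum was 1 gene, Sox9, the chondrocyte transcription factor. It was called higher in both, at 23840 and 24004 in KO and 2785 and 3228 in WT MEFs under TG. In the untreated and deprived groups the Sox9 arrays of the genotypes overlapped, untreated at 9636 and 14269 in KO and 4987 and 14018 in WT MEFs. Of the same list, Acan, Comp, Matn1, Matn3 and Bglap were above background on no array. The sum of the 10 fibroblast markers, which include Dcn, was 88389 to 99959 in KO and 58057 to 60762 in WT MEFs under TM, with Thy1, Pdgfra, Pdgfrb and Dcn called higher, and 76682 to 91445 in KO and 57921 to 70736 in WT MEFs untreated, with Thy1, Fn1 and Dcn called higher. S100a4 of that list was called lower in KO MEFs untreated and under OD, GD and TG. The median log2 fold of its 9 tested genes was 0.092 under TM, -0.019 under TG and 0.76 untreated. The sum of 6 smooth muscle markers was 63541 to 64818 in KO and 52167 to 57232 in WT MEFs under TM, with no gene called. The sum of 6 endothelial markers was 1607 to 1878 in KO and 2570 to 4187 in WT MEFs untreated, Cd34 being lower and Pecam1 and Tie1 above background on no array. Of the adipocyte markers, Lpl was called higher in KO MEFs untreated and under OD and Pparg lower under TG, and Adipoq, Fabp4 and Cebpa were above background on no array. Epithelial and blood markers gave no call. The part of other cells in the collagen differences was not tested.

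The duplicates of collagen chains were unequally close. For the 12 chains above background on all 24 arrays, the median fold between the 2 arrays of a group was 1.27 (KO TG), 1.15 (KO TM), 1.08 (WT TG) and 1.17 (WT TM) under the drugs. In the untreated and deprived groups it was 1.36 to 1.48 in KO and 1.64 to 2.19 in WT MEFs, with WT OGD the widest and 8 of its 12 chains at least 2-fold apart. Over all 7365 genes above background on all arrays, the median was 1.10 to 1.32. The fit gave each chain 1 spread over all groups, so a standard error averages over close and wide duplicates.

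**Figure D5:**
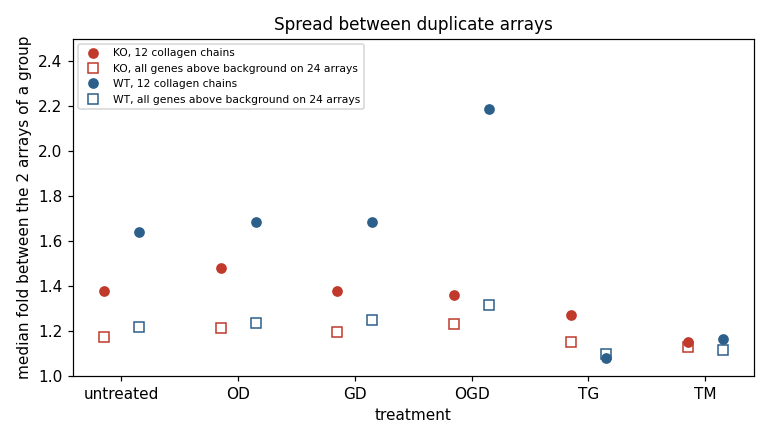
Median fold between the 2 arrays of each group, for the 12 collagen chains above background on all 24 arrays (filled circles) and for all 7365 such genes (open squares), KO MEFs in red beside WT MEFs in blue. Collagen duplicates differ most in the untreated and deprived WT groups, up to 2.19-fold under OGD. They lie near the level of all genes under TM and in WT MEFs under TG, and above it in KO MEFs under TG (1.27 against 1.15).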

How the data were processed

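RNA of 24 MEF samples was hybridized to Illumina mouse BeadChips. The authors deposited normalized intensity values for 45281 probes; the submitters' processing notes name GenomeStudio, with no version, and the sorted values of all arrays were nearly the same, as after quantile normalization. A table of un-normalized signals and detection p-values held 24 columns of each, whose names match no sample's labels, and was not used here. Intensities were taken as log2, and 34885 probes had 1 gene symbol in the platform annotation. Background was modelled from the mode of the intensities (182), and the 25990 probes above 235 on at least 1 array were fitted by limma 3.58.1 in R 4.3.3 (lmFit and eBayes, 12 groups, 12 residual degrees of freedom). P-values were adjusted by the Benjamini-Hochberg method over all these probes in each of 21 comparisons, and the method was tested on simulated data. The simulated noise was independent between arrays with a single spread per probe. That test therefore does not cover the paired deviations or unequal duplicates of these arrays. Samples were grouped by genotype and treatment from their labels, 2 a group.

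Members and lists were chosen with earlier results of these data known. Chains called in any comparison were named, with the partner chains of types I, IV, V and VI; Col16a1, Col17a1, Col23a1 and Col4a4 were described after their values were seen. Over the 66 pairs of groups, the correlation between differences of replicate 1 and replicate 2 was 0.137 to 0.767, so replicate numbers were treated as pairing the arrays. The alternatives were the replicate block, also within chip set, no filter or a stricter filter on dim probes, background subtraction, cyclic loess, the mean of a gene's probes, a fit of the compared groups only, and leaving out each array. The number of arrays limits the precision. Promoters came from RefSeq (GRCm38.p6).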

Additional observations from a re-analysis of the deposited data

Results flagged for a closer look

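The response of Col7a1 to TM was called different between the genotypes by a test of the difference itself, in the fit of all arrays. The KO response minus the WT response was -2.63 on the log2 scale (SE 0.42, limma adjusted p = 0.0117 over all probes kept). Both KO arrays under TM lay below both untreated KO arrays, at 393 and 406 against 2124 and 1973. The WT arrays read 379 and 366 under TM against 448 and 211 untreated. With a background level of 235, a WT fall as large as the KO one could not have been seen. The test therefore cannot tell an absent WT response from one hidden by the floor. The call was lost without some single arrays, after background subtraction and in the fit of the compared groups alone. A second, dim probe gave -0.18, which was not called.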

How the results depend on the processing

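Of the 20 calls among chains, 8 were kept whichever array was left out, namely the 4 of Col7a1 between genotypes, its 2 KO responses, Col6a2 under TM and the KO response of Col8a1 to TG. Another 5 were lost whichever of their arrays was left out. No named value changed direction past the threshold in any alternative. Counts of chains called in KO against WT without 1 array were 2 to 3 untreated (2 with all arrays), 1 to 2 under OD and GD (2 each), 1 to 9 under OGD (2), 0 to 1 under TG (1) and 1 to 3 under TM (5). Under OGD 5 were called when KO replicate 2 was left out, 9 when WT replicate 1 was, and 1 when either other array was. A lone array was assumed to vary like the other groups. Counts were 0 to 2 for the KO response to OGD (2 without KO OGD replicate 1), 0 to 3 for the WT response to OGD (3 without WT OGD replicate 1), 2 to 2 for the KO response to TG (3), 1 to 4 for the KO response to TM (2; 4 without KO untreated replicate 2), and 0 to 1 for the response differences under TG (1 without WT untreated replicate 1) and TM. All other responses and response differences stayed at 0 to 0.

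With the replicate block, chains called in KO against WT numbered 5 untreated, 5 under OD, 5 under GD, 4 under OGD, 6 under TG and 6 under TM. There were 5 for KO TM, 1 for WT OGD, 2 for WT TG, and 1 (TG) and 3 (TM) for the response differences. The block changed no other call. Nested within chip set, the block gave 8 untreated, 5 under OD, 5 under GD, 3 under OGD, 6 under TG, 6 under TM, 5 for KO TG, 6 for KO TM, 1 for WT OGD, 2 for WT TG, and 2 (TG) and 3 (TM) for the differences. Nested within the drug and the other arrays, chosen after seeing the data, it gave 8 untreated, 7 under OD, 5 under GD, 4 under OGD, 6 under TG, 6 for KO TG, 7 for KO TM, 2 for WT OGD, 2 for WT TG, 1 for WT TM, and 2 (TG) and 3 (TM) for the differences. The block was read for the pathway and marker lists after the data were seen. Totals of calls were 46, 52 and 59 with the 3 blocks. The nested blocks contrasted groups of different sets at their replicate 1 level. Folds of contrasts that cross sets therefore moved, and calls in them depend partly on that choice of reference.

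Without the filter, 1 chain was called under OD and 1 under GD. With the stricter filter, 4 were called under OGD and 4 under TG. After background subtraction 1 was called under OD, 1 under GD and 0 for the TM response difference (Col7a1, -3.78, adjusted p = 0.142). The Col1a1 call under OD was lost without the filter (adjusted p = 0.0742), with the block within chip set (0.0640) and after subtraction (0.0943), and that of Col18a1 under GD without the filter (0.0529), after subtraction (0.0584) and with the mean of probes (0.0655). Subtraction also ended the calls of Col3a1 under TM (0.0655) and of the KO response of Col7a1 to TG (0.0786), and the mean of probes that of Col18a1 to TG (0.0658). Cyclic loess called 3 under TG. The mean of probes called 1 under GD, 4 under OGD and 3 under TG. The fit of the compared groups alone called 0 untreated (Col7a1, adjusted p = 0.0706), 1 under GD, 0 under OGD (Col7a1, 0.0673; Col4a2, 0.362), 6 under TG, 6 for KO TG, 1 for WT TG, 1 for WT TM and 0 for the TM response difference. It tests on few residual degrees of freedom. For the other settings the cause was not tested. Signal over background limits Col7a1 in WT MEFs, Col17a1, Col23a1 and Col4a4, which lay near 235.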
